A study of Rattus norvegicus with 46 samples.

Results

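DNA damage sensing and repair genes were followed in rat skin during and after a course of radiation. The members were chosen with earlier results of these data known and were taken by symbol from the array annotation. Of 49 genes listed, 36 had an annotated feature on the array, of 23188 features tested in all. They fall into damage sensing and checkpoint genes (8 of 10 measured), homologous recombination (9 of 13), non-homologous end joining (6 of 7), base excision and single-strand break repair (6 of 7), nucleotide excision repair (4 of 6), the Fanconi anaemia pathway (1 of 3) and translesion synthesis (2 of 2). The 13 members without an annotated feature, which are not analysed here, were Atr, Tp53bp1, Rad51b, Rad52, Xrcc3, Blm, Prkdc, Lig3, Ercc2, Ercc5, Fanca, Fanci and Msh6, the last being the single mismatch repair gene listed.

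Ionizing radiation breaks DNA strands. The kinase ATM is activated at double-strand breaks through the complex of MRE11, RAD50 and NBN and signals through the kinase CHK2, while CHK1 answers to stalled replication. Cells then join the ends directly by non-homologous end joining, which works throughout the cell cycle, or copy the sister chromatid by homologous recombination, which is limited to cells that are replicating or have replicated their DNA. Genes of homologous recombination and of the Fanconi anaemia pathway, which repairs crosslinks between strands, are therefore transcribed mostly in dividing cells, which in skin lie in the basal epidermis and the hair matrix. The other pathways repair damaged bases (base excision), bulky lesions (nucleotide excision) or let polymerases read past damage (translesion synthesis), and much of the damage response acts on proteins rather than on transcript levels.

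Sprague-Dawley rats had punches of 5 mm taken repeatedly from abdominal skin, each hybridized to a single-colour Clariom S array. Baseline skin (6 arrays of 6 rats, day -10) preceded all treatment. Irradiated skin was exposed on alternate days to 4 fractions of 10 Gy (40 Gy in total) from a 6 MeV electron beam, with injections of either RTA-408, an activator of the antioxidant transcription factor NRF2, or its vehicle DMSO (3 arrays of 3 rats per arm and day). Unirradiated skin was sham-irradiated and injected with the same vehicle (2 arrays per day; replicate 2 is one rat up to day 3 and another on days 7 and 14). Biopsies were taken on day -4, within the radiation course, and on days 1, 3, 7 and 14 after it. Sex and age are not given in the labels used here, and no arm received RTA-408 without radiation.

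All values are log2 signals as deposited by the authors. They run from 2.10 to 19.93, wider than a 16-bit scanner value allows, so differences are given on this scale and not as folds. The level of an array's negative control features, whose median lay between 5.78 and 6.52, is called the background here. Palb2 and Xrcc2 were at or below it on all 46 arrays, Ddb2 on 45, Rad54l on 42, Nhej1 on 31 and Bard1 on 30, so these carry little or no measured level. Array medians lay between 6.84 and 6.95. Of 9 basal keratinocyte markers 6 were measured, with means between 12.94 and 15.54 on every array. Skeletal muscle markers (12 measured of 15) had means from 6.45 to 18.68 between arrays, and from 6.45 to 18.52 within baseline alone, so punches differed in their muscle RNA. By the levels of their spike-in controls the arrays fell into 3 sets, of 18, 10 and 18. All baseline arrays and the unirradiated arrays of days -4 and 1 were in the first set, and the unirradiated arrays of days 3, 7 and 14 in the third. A member was called at a limma adjusted p under 0.05 over all 23188 features.

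During the radiation course, on day -4, 5 of the 36 members were lower in irradiated than in unirradiated vehicle skin and 0 were higher. They were Fancd2 and 3 homologous recombination genes, Brca1, Bard1 and Rad54l, together with the checkpoint kinase gene Chek2. Over all features 3.23% were called higher and 4.19% lower on that day, against 13.9% of the members called. The median difference was -0.06 over the members and 0.07 over all features. In 18 of 36 members the arrays of the 2 groups did not overlap. The same count was not made over all features, so this number has no reference. At an unadjusted p under 0.05, 11 members were lower and 0 higher. Of all 23188 features, 4963 had such an unadjusted p in either direction. Of the 9 homologous recombination genes 8 had a difference below 0, with a median of -0.77. Of these 9 genes 4 were at background in all irradiated vehicle arrays and 2 in both unirradiated arrays, so their differences have at most a bound. Both groups lay apart from baseline on that day. The median difference of these 9 genes from baseline was -0.36 in irradiated and 0.41 in unirradiated vehicle skin, with none called in either. Of the 5 called members only Fancd2 was also called lower than baseline in irradiated vehicle skin on day -4.

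Fancd2 encodes the protein whose ubiquitination marks crosslinks for repair. Its log2 signal was 5.21, 6.49 and 6.10 in the 3 irradiated vehicle arrays of day -4 and 7.78 and 7.88 in the 2 unirradiated arrays, and the groups did not overlap. The difference was -1.90 (SE 0.44, limma adjusted p = 0.00748), the lowest of any member in any comparison. Baseline arrays spread from 6.27 to 7.86 with a median of 7.22, and the unirradiated pair of day -4 lay at their upper end.

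Brca1, which directs broken ends towards recombination, read 6.48, 6.82 and 6.77 in irradiated and 7.59 and 8.52 in unirradiated vehicle skin on day -4. The irradiated arrays were the 3 lowest of the 5, and the difference was -1.37 (SE 0.43, limma adjusted p = 0.0433). Bard1, the partner with which BRCA1 forms a ubiquitin ligase, read 5.65, 6.26 and 4.48 against 6.96 and 7.03. All 3 irradiated arrays were at background, so the fitted difference of -1.53 (limma adjusted p = 0.0198) stands for one of at least 0.60 above background. Rad54l, a motor protein gene of strand exchange, read 5.05, 5.36 and 4.64 against 6.06 and 6.51 (difference -1.26, limma adjusted p = 0.0185). Its irradiated arrays and 1 of the 2 unirradiated arrays were at background, so no measured size can be given.

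Chek2 read 6.67, 7.39 and 6.84 in irradiated vehicle skin and 8.21 and 8.37 in unirradiated skin on day -4. No array of one group reached the other, and the difference was -1.33 (SE 0.35, limma adjusted p = 0.0173). Chek1, the replication checkpoint kinase gene, read 6.76, 7.36 and 6.42 against 8.14 and 8.19, a difference of -1.32 that did not pass (limma adjusted p = 0.107). Exo1, the nuclease gene of end resection (-1.28, limma adjusted p = 0.141), Apex1, the endonuclease gene of base excision (-0.99, 0.0764), and Brca2, a mediator gene of strand exchange (-0.77, 0.155), also had lower means without passing.

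**Figure D1:**
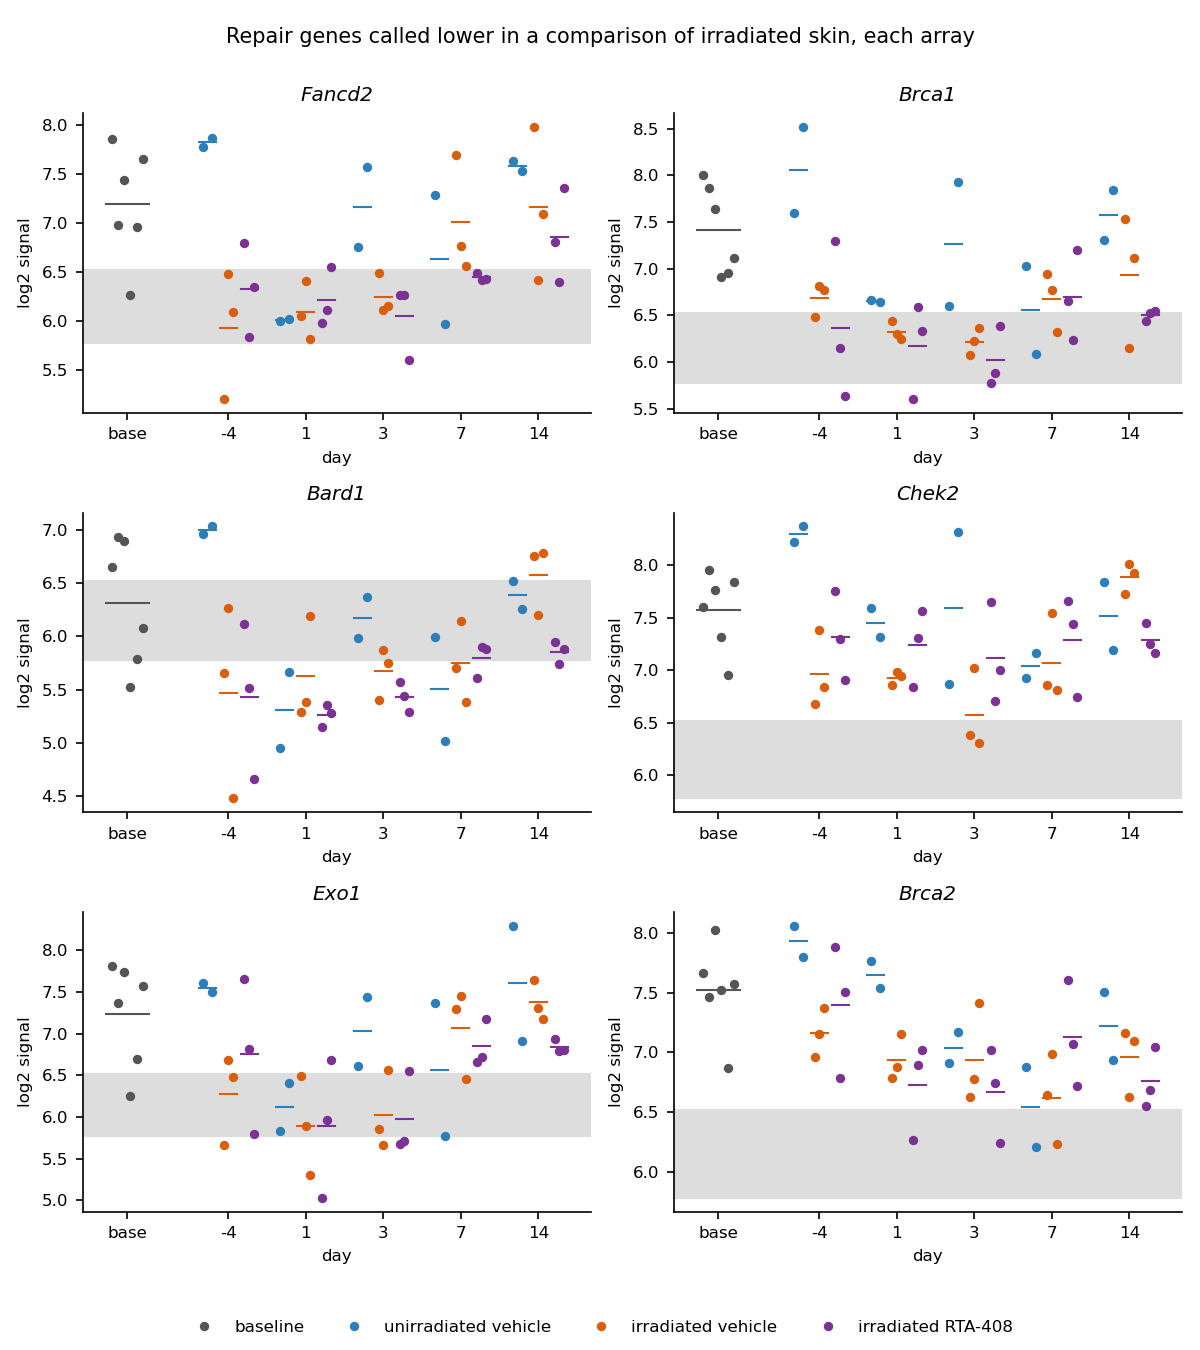
Log2 signal of Fancd2, Brca1, Bard1, Chek2, Exo1 and Brca2 on each array (points) with group means (short lines), for baseline (grey), unirradiated vehicle (blue), irradiated vehicle (orange) and irradiated RTA-408 skin (purple) by day; the grey band spans the background of the 46 arrays, 5.78 to 6.52. On day -4 both unirradiated arrays lie above all 3 irradiated vehicle arrays in each panel, while on day 1 the unirradiated Fancd2, Bard1 and Exo1 signals are as low as the irradiated ones.

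Leaving out irradiated vehicle replicate 1, 2 or 3 of day -4 moved the Fancd2 difference to -1.54, -2.17 and -1.98 (limma adjusted p = 0.0578, 0.00649 and 0.0196). Of the 7 calls between irradiated and unirradiated vehicle skin over all days, 3 were made without replicate 1, 2 without replicate 3 and 0 without either unirradiated array of day -4, the single array left then being assumed to vary like the other groups. Within the first spike-in set alone, the Fancd2 difference was -1.54 (limma adjusted p = 0.0606) and none of the 5 passed, with differences between -1.62 and -1.18.

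Cell division genes stood apart in the same samples. Of 22 measured cell division genes, which share no symbol with the members, 19 were lower on day -4 and 0 higher (median difference -2.10), and their mean signal was 6.81 to 8.34 in the irradiated vehicle arrays, 9.32 and 9.62 in the unirradiated and 8.20 to 9.39 in the baseline arrays. Mki67, the proliferation marker, differed by -3.69 (limma adjusted p = 0.00616). Hair matrix and shaft markers moved with them: 6 of 7 measured, of 10 listed, were lower (median difference -6.10), with a mean of 5.80 to 8.97 in irradiated vehicle arrays, 14.14 and 14.19 in unirradiated ones and 10.30 to 14.18 at baseline. Of these markers 1 was at background in all irradiated vehicle arrays of that day. Basal keratinocyte markers went the other way, 3 of 6 being higher and 0 lower on that day. In a whole biopsy fewer dividing cells and less transcript per cell cannot be told apart, and the part of either list in the repair genes' differences was not tested.

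**Figure D2:**
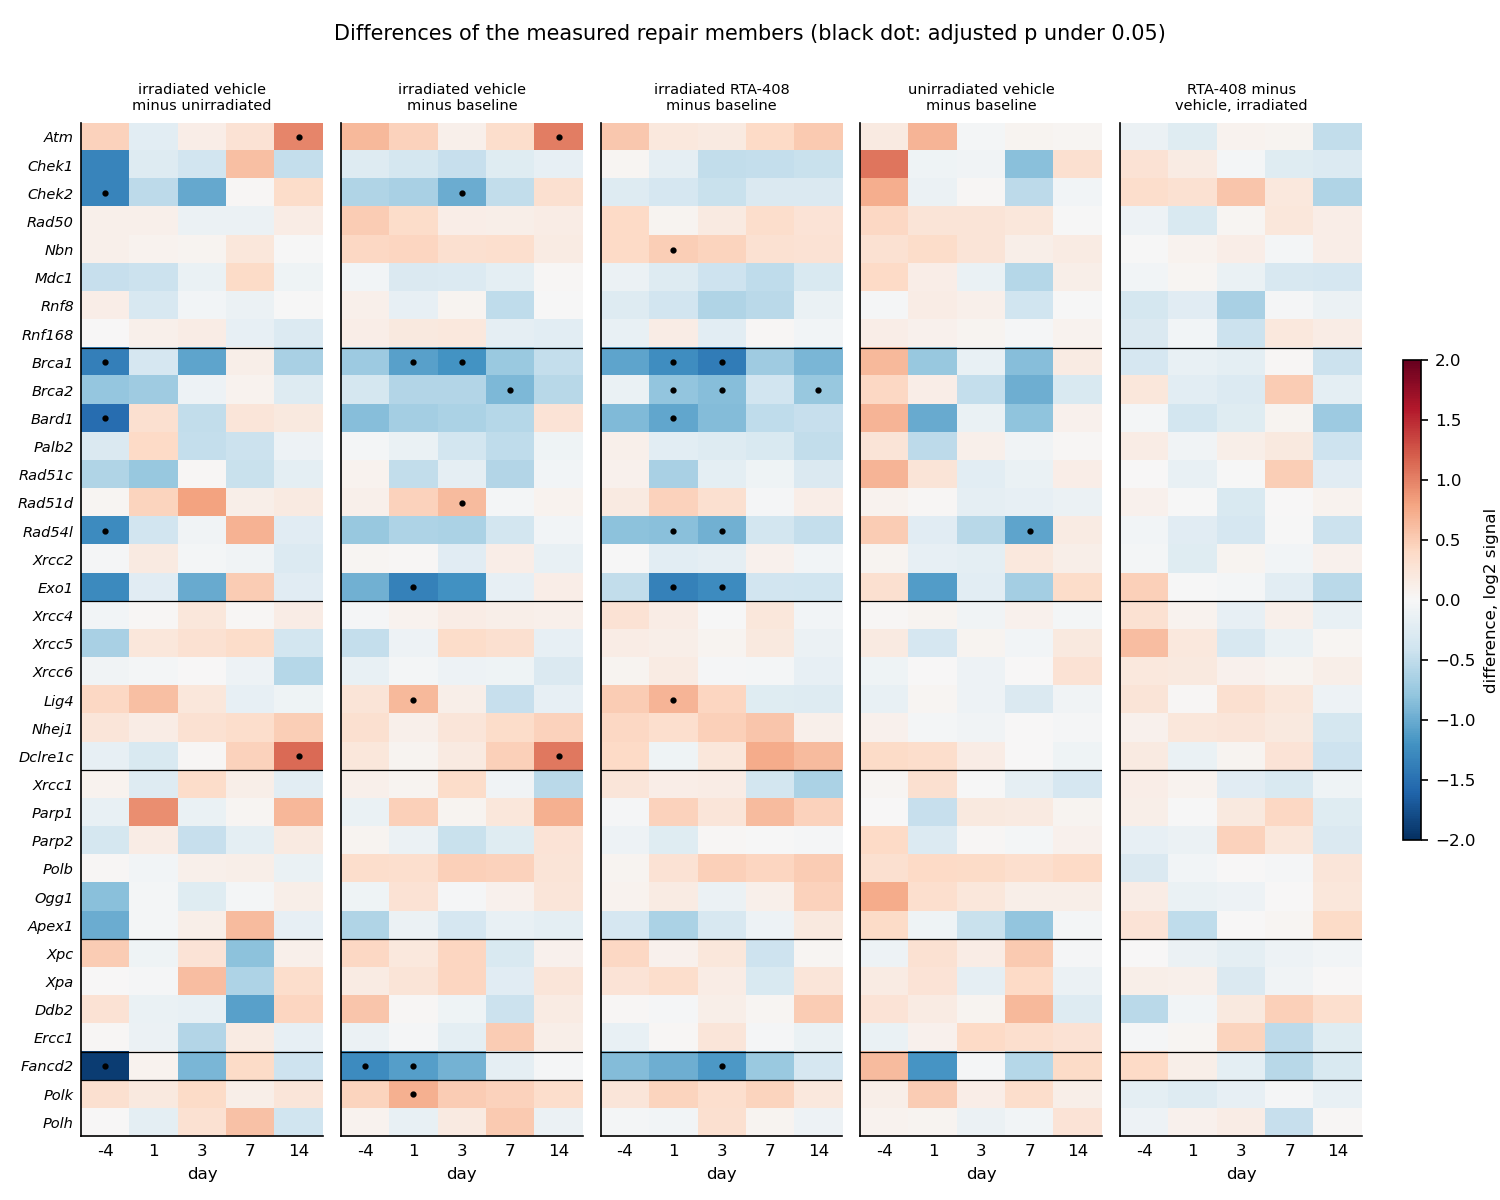
Differences of log2 signal for the 36 measured members (rows, grouped by pathway between the black lines, in the order damage sensing, homologous recombination, non-homologous end joining, base excision, nucleotide excision, Fanconi anaemia, translesion synthesis) on each day (columns) in the 5 comparisons named above each panel; colour runs from -2 (blue) to 2 (red) and a black dot marks a limma adjusted p under 0.05. The dots of the lower genes sit in the homologous recombination rows and in Fancd2 and Chek2, the unirradiated arm holds 1 dot and the drug panel none.

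After the course the same contrast gave fewer calls. On days 1, 3 and 7, 0 of 36 members were called in either direction, with 5, 5 and 5 at an unadjusted p under 0.05. Of all 23188 features, 3810, 3156 and 4162 had such an unadjusted p on these days. Over all features 1.2%, 0.656% and 2.69% were called higher and 0.901%, 0.647% and 1.33% lower on these days. The smallest p on day 1 was that of Parp1, the sensor of single-strand breaks, at 10.55, 10.65 and 10.66 in irradiated and 9.75 and 9.62 in unirradiated skin, a difference of 0.93 (limma adjusted p = 0.128). Lig4 differed by 0.61 (0.194), Rad51c by -0.76 (0.208) and Brca2 by -0.71 (0.256) on that day, all without passing.

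On day 3 Rad51d, a homologous recombination gene, came nearest to a call in this contrast, at 7.90, 7.57 and 7.76 in irradiated against 6.97 and 6.90 in unirradiated skin. The groups did not overlap and the difference was 0.81 (limma adjusted p = 0.052). Chek2 differed by -1.02 (0.146), Brca1 by -1.05 (0.247) and the damage recognition gene Xpa by 0.62 (0.237). The 2 unirradiated arrays of that day were far apart, at 6.87 and 8.31 for Chek2 and at 6.60 and 7.93 for Brca1, and the cell division mean was 8.04 and 9.14 in the same arrays. Without unirradiated replicate 1 the Chek2 difference on day 3 was -1.74 and passed (limma adjusted p = 0.00949).

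On day 7 the nucleotide excision genes had the smallest p. Xpc, which finds distorted helix, read 8.74, 8.08 and 8.30 in irradiated and 9.27 and 9.12 in unirradiated skin, a difference of -0.82 (limma adjusted p = 0.0745). Ddb2, the sensor gene of ultraviolet lesions, differed by -1.09 (0.0731) with nearly every array at background. Polh, a translesion polymerase gene, read 8.41, 8.21 and 8.20 against 7.67 and 7.70 (0.58, limma adjusted p = 0.266), and Rad54l differed by 0.69 (0.272), none passing.

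Baseline gives a second reference, with the limit that the same 6 arrays serve all 3 arms and that they come from 6 of the same rats. Against it irradiated vehicle skin had 12 calls over 36 members and 5 days, 5 higher and 7 lower, irradiated RTA-408 skin 13 calls, 2 higher and 11 lower, and unirradiated vehicle skin 1, lower. All baseline arrays lie in the first spike-in set and no irradiated array of days 3, 7 and 14 does. With the set as a term 2 calls were made in vehicle skin (Fancd2 on day -4, Lig4 on day 1), 3 with RTA-408 (Brca1, Rad54l and Lig4, all on day 1) and 0 in unirradiated skin. Every other call against baseline given below was lost in that fit. Features called higher in irradiated vehicle skin were 6.46%, 5.08%, 4.57%, 7.92% and 9.47% of all on days -4, 1, 3, 7 and 14, and those called lower 4.26%, 4.65%, 3.97%, 6.06% and 5.96%. With RTA-408 they were 4.22%, 6.17%, 5.33%, 9.12% and 5.53% higher and 1.57%, 4.79%, 4.36%, 6.67% and 4.71% lower. In unirradiated skin 0.0173%, 0.315%, 0%, 2.71% and 0% were called in either direction. The members called against baseline on days -4, 7 and 14 were 2.78%, 2.78% and 5.56% in vehicle and 0%, 0% and 2.78% in RTA-408 skin. On days 1 and 3 they were 13.9% and 8.33% in vehicle and 19.4% and 13.9% in RTA-408 skin.

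Homologous recombination genes made up most of the lower calls against baseline. Brca1 was called lower on days 1 and 3 in both irradiated arms. At baseline it spread from 6.91 to 8.00 (median 7.38). On day 3 it read 6.07, 6.22 and 6.36 with vehicle (difference -1.19, SE 0.33, limma adjusted p = 0.0182) and 5.78, 5.88 and 6.39 with RTA-408 (-1.40, SE 0.33, limma adjusted p = 0.0049), all below the lowest baseline array. On day 1 the differences were -1.09 (0.0305) and -1.24 (0.0107). With the spike-in set as a term the day 3 differences were -0.90 and -1.10 (limma adjusted p = 0.451 and 0.349). Leaving out single arrays ended the vehicle call in 6 of 9 fits on day 1 and in 3 of 9 on day 3, and the RTA-408 call in 1 and 0 of 9. By day 14 the vehicle arrays read 7.53, 6.15 and 7.12, which overlaps baseline, and the RTA-408 arrays 6.44, 6.53 and 6.54, still below all 6 baseline arrays but not called.

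Exo1 fell on day 1 in both arms, by 1.35 with vehicle (limma adjusted p = 0.0302) and by 1.35 with RTA-408 (0.0265), and by 1.26 on day 3 with RTA-408 (0.0445). Its vehicle arrays of day 1 read 6.49, 5.89 and 5.30 and its RTA-408 arrays 5.03, 5.96 and 6.68, partly at background, while baseline ran from 6.25 to 7.81, so 1 array of each arm reached into the baseline range. Brca2 fell with RTA-408 on days 1, 3 and 14, by 0.80, 0.85 and 0.76 (limma adjusted p = 0.0355, 0.027 and 0.0489), and with vehicle on day 7, by 0.90 (0.0131). One baseline array, at 6.87, overlapped with the treated arrays in each case, the other 5 lying between 7.46 and 8.03. Leaving out single arrays ended the RTA-408 calls of Brca2 in 5, 4 and 8 of 9 fits on days 1, 3 and 14, its vehicle call in 1 of 9, and the Exo1 calls in 5 or 6 of 9. Bard1 and Rad54l fell on day 1 with RTA-408 by 1.05 and 0.84 (limma adjusted p = 0.0286 and 0.0314) and Rad54l also on day 3 by 0.97 (0.0142). Their treated arrays were all at background, which leaves a difference of at least 0.20 for Bard1 and no measured size for Rad54l.

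Fancd2 fell against baseline on days -4 and 1 with vehicle, by 1.26 and 1.10 (limma adjusted p = 0.0126 and 0.0327), and on day 3 with RTA-408, by 1.14 (0.0258). Its means with vehicle were 5.93, 6.10, 6.25, 7.01 and 7.17 over the 5 days, against 7.20 at baseline, and with RTA-408 6.33, 6.22, 6.05, 6.45 and 6.86. Chek2 fell on day 3 with vehicle, by 1.00 (limma adjusted p = 0.0158), where it read 6.38, 7.02 and 6.31, and stood at 7.72, 8.01 and 7.93 on day 14. In the 2 RTA-408 comparisons without a call, Brca1 differed by -1.05 on day -4 (limma adjusted p = 0.052), and on day 7 Dclre1c by 0.74 (0.0631) and Rnf8 by -0.53 (0.0692). Chek1 was never called, its differences from baseline lying between -0.84 and 1.07 over all arms and days.

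Unirradiated skin also varied in these genes over the days. On day 1, when no member was called in it, Fancd2 read 6.01 and 6.03, below all 6 baseline arrays (difference -1.18, limma adjusted p = 0.16). Exo1 differed by -1.12 (0.287) on that day, and Bard1, at 4.96 and 5.66, was at background in both arrays (0.214). The cell division mean was 7.53 and 7.58 in these 2 arrays, as low as the 7.36 to 7.88 of irradiated vehicle skin on day 1. On day -4 Chek1 differed from baseline by 1.07 (0.488), and on days 3 and 14 no member had an unadjusted p under 0.05 (1058 and 984 of all features had). On day 7 Rad54l was called lower than baseline by 1.06 (limma adjusted p = 0.05 after rounding), with both unirradiated and 5 of 6 baseline arrays at background. Against baseline, cell division genes were lower for 17, 14, 5, 1 and 0 of 22 in irradiated vehicle skin over the 5 days, for 9, 16, 7, 1 and 0 with RTA-408 and for 0, 1, 0, 0 and 0 in unirradiated skin. Whether the change over days differed between irradiated and unirradiated vehicle skin was tested with a moderated F-test. It called 0 of 36 members (smallest limma adjusted p = 0.108, Rad54l) and 2.16% of all features. By this F-test 9 members had an unadjusted p under 0.05, a count that was not made over all features.

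The upstream bases of Brca1, Bard1, Rad54l, Exo1 and Fancd2, each called lower in a comparison, are shown. Those of Chek2 and Brca2, also called lower, are not printed. Upstream bases were searched for 3 short sequence elements common in cell cycle promoters. These were the CCAAT box (CCAAT), the cell cycle homology region (TTTGAA) and E2F sites (TTTGGCGC or TTTCCCGC). RefSeq (build GRCr8) gave a promoter window for 29 of the 36 measured members, and the 250 bases before the annotated start are used, 5′ to 3′, with matches on either strand in capitals. Lig4, which was higher, is given for comparison.
Brca1, chr10:86977582-86977831, minus strand: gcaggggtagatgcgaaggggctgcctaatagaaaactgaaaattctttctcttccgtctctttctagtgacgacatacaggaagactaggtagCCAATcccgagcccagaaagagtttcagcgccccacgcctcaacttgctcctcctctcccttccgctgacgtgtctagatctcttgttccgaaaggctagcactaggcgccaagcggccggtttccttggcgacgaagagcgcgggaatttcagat
Bard1, chr9:80143756-80144005, minus strand: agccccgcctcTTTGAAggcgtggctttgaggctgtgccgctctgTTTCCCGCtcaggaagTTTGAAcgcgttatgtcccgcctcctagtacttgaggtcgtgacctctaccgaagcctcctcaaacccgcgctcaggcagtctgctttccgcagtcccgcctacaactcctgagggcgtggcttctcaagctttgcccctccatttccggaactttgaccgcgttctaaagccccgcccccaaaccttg
Rad54l, chr5:134841772-134842021, minus strand: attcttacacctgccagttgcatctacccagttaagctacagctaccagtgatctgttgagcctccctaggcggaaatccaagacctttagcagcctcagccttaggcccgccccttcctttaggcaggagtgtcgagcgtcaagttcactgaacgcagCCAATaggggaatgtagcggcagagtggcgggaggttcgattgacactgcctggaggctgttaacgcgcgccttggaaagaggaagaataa
Exo1, chr13:90341768-90342017, plus strand: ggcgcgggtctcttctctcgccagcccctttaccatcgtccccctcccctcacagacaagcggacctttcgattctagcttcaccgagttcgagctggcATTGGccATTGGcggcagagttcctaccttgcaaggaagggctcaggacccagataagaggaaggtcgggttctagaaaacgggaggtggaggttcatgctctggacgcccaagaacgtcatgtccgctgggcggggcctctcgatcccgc
Fancd2, chr4:148234458-148234707, plus strand: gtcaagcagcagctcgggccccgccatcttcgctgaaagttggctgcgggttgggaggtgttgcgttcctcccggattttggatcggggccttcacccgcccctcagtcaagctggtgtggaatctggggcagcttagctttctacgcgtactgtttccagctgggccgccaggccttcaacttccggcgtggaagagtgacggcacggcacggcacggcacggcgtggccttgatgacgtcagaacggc
Lig4, chr16:86220192-86220441, plus strand: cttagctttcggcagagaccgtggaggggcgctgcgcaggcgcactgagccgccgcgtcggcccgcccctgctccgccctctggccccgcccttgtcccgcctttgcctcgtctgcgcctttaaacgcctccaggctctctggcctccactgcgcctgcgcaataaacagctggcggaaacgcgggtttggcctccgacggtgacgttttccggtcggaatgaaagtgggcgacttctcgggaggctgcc
Brca1 held 1 CCAAT match, Exo1 2 on the reverse strand, Bard1 2 TTTGAA matches and 1 TTTCCCGC match, and Rad54l 1 CCAAT match, while the Fancd2 and Lig4 windows held none of these letters. A CCAAT match stood in 27.6% of the 29 members' windows and in 34% of all 33469 promoter windows of the same length, and TTTGAA in 10.3% and 16.2%. Either E2F site was found in 4 of 29 windows (13.8%), those of Atm, Chek1, Bard1 and Rad51d, and in 1.21% of all. Of these 4 genes only Bard1 was called lower in a comparison, while Atm and Rad51d were called higher and Chek1 was never called. In the windows of 21 measured cell division genes CCAAT stood in 81%, TTTGAA in 42.9% and either E2F site in 0%. A match here is a string of letters, not a site.

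Among the genes that were higher, Lig4 changed most clearly over the days. It encodes the ligase that seals ends in non-homologous end joining. On day 1 it read 8.32, 8.72 and 8.71 with vehicle and 9.17, 7.96 and 8.70 with RTA-408, against 7.59 to 8.10 (median 8.01) at baseline. The vehicle arrays lay above all baseline arrays, while RTA-408 replicate 2 lay within them. The differences were 0.65 (SE 0.19, limma adjusted p = 0.0282) and 0.68 (SE 0.19, limma adjusted p = 0.0185), the latter falling to 0.40 (0.314) without RTA-408 replicate 1. The vehicle call was lost without vehicle replicate 2 or 3 (0.58 in both, limma adjusted p = 0.137 and 0.135). By day 7 the arrays read 7.51, 7.41 and 7.51 with vehicle and 7.42, 7.76 and 7.92 with RTA-408. In unirradiated skin the 10 arrays of the 5 days ran from 7.59 to 8.15.

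The moderated F-test over the 5 days called Lig4 in irradiated vehicle skin (limma adjusted p = 0.00586) and in irradiated RTA-408 skin (0.00696), where 14.2% and 6.26% of all features were called. With vehicle it also called Chek2 (0.0312) and Rad51d (0.0436), 3 of 36 members, and with RTA-408 no other member. Leaving out single arrays ended the Chek2 call in 4 of 15 fits and the Rad51d call in 10 of 15. Of 8 other settings 0 ended that of Chek2 and 3 that of Rad51d. In unirradiated skin 0 members and 1.13% of features were called, with 9 members at an unadjusted p under 0.05, a count not made over all features. With the rat as a fixed term within the arm, Lig4 stood at a limma adjusted p of 0.058 with vehicle and 0.125 with RTA-408 and no longer passed. With the spike-in set as a term both calls were lost too (0.0779 and 0.0853).

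**Figure D3:**
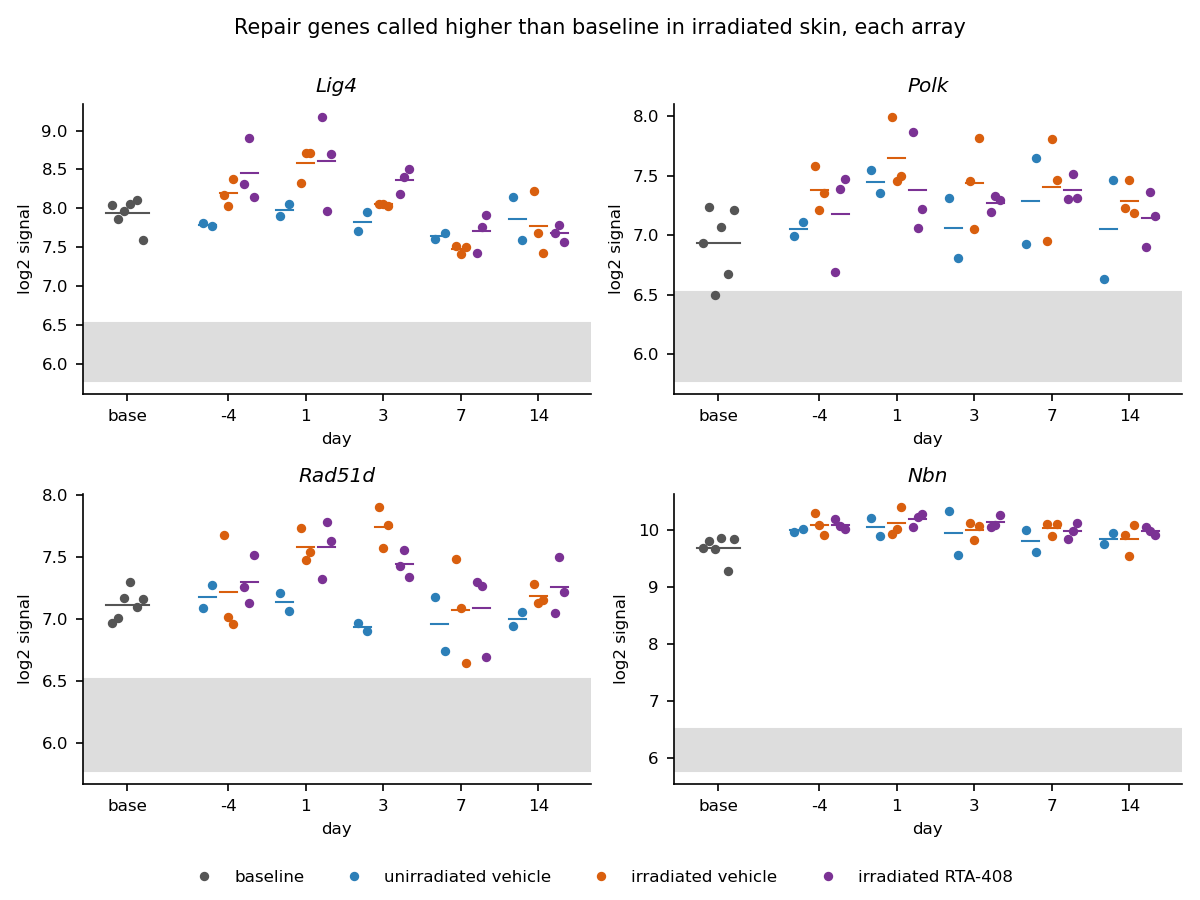
Log2 signal of Lig4, Polk, Rad51d and Nbn on each array (points) with group means (short lines), by arm and day, coloured grey for baseline, blue for unirradiated vehicle, orange for irradiated vehicle and purple for irradiated RTA-408 skin, with the background of the arrays as a grey band. Lig4 is highest on day 1 in both irradiated arms, at group means of 8.58 and 8.61, and lower on day 7, at 7.48 and 7.70.

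Of the other end joining genes, Dclre1c was called on day 14 and is described with Atm. Xrcc4, Xrcc5 and Xrcc6 (the LIG4 scaffold and both Ku subunits) and the scaffold gene Nhej1 were never called. Over all 25 comparisons their differences ran from -0.16 to 0.30 for Xrcc4, from -0.65 to 0.61 for Xrcc5, from -0.57 to 0.29 for Xrcc6 and from -0.36 to 0.56 for Nhej1, which was at background on most arrays. Xrcc5 read 7.97, 8.39 and 8.41 with vehicle and 8.95 and 8.86 in unirradiated skin on day -4 (difference -0.65, limma adjusted p = 0.172).

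Polk, a translesion polymerase gene, rose on day 1 with vehicle, at 7.99, 7.45 and 7.50 against 6.50 to 7.24 (median 7.00) at baseline, with no overlap (difference 0.71, SE 0.22, limma adjusted p = 0.0384). With RTA-408 on that day it read 7.86, 7.06 and 7.22, and in unirradiated skin 7.54 and 7.35, neither called. Rad51d rose on day 3 with vehicle by 0.63 (SE 0.17, limma adjusted p = 0.0141), its 3 arrays lying above the baseline range of 6.97 to 7.30. Nbn, a subunit of the break-sensing complex, rose on day 1 with RTA-408 by 0.50 (SE 0.16, limma adjusted p = 0.031), at 10.05, 10.24 and 10.28 against 9.28 to 9.85 (median 9.74) at baseline. With vehicle it read 9.94, 10.01 and 10.40 on the same day and was not called. Leaving out single arrays ended the Polk and the Nbn call in 6 of 9 fits each, and of 8 other settings 4 ended that of Polk and 5 that of Nbn. Rad50, its partner, was never called, the smallest limma adjusted p being 0.0716.

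Late after radiation, on day 14, Atm and Dclre1c were higher in irradiated than in unirradiated vehicle skin, 2 of 36 members with 0 lower, where 4.43% of all features were called higher and 2.53% lower. Atm read 9.26, 10.00 and 11.08 in irradiated and 9.10 and 9.16 in unirradiated skin (difference 0.98, SE 0.31, limma adjusted p = 0.0462). Dclre1c, which encodes the hairpin-opening nuclease Artemis, read 7.35, 8.09 and 9.16 against 7.06 and 7.06 (difference 1.14, SE 0.36, limma adjusted p = 0.0451). Both were called against baseline too (differences 1.02 and 1.05, limma adjusted p = 0.00244 and 0.00651).

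Replicate 3 was the highest array for both genes. On it Parp1 also read 12.04, against 10.18 and 10.36 in the other two. Without that array the differences between the arms were 0.50 for Atm (limma adjusted p = 0.477) and 0.66 for Dclre1c (0.425). It also stood apart in cell type markers, with a macrophage marker mean of 15.77 over 11 genes (11.22 and 12.20 on the other two, 8.82 and 9.86 in unirradiated skin, 8.35 to 9.74 at baseline) and a muscle marker mean of 13.35 (17.08 and 16.79). All 11 macrophage markers were called higher on day 14, and none was at background throughout the group. Their part in the Atm and Dclre1c differences was not tested. With RTA-408 the day 14 arrays read 9.69, 9.56 and 9.62 for Atm and 7.57, 7.99 and 7.77 for Dclre1c, with macrophage means of 11.15 to 11.94, and were not called.

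**Figure D4:**
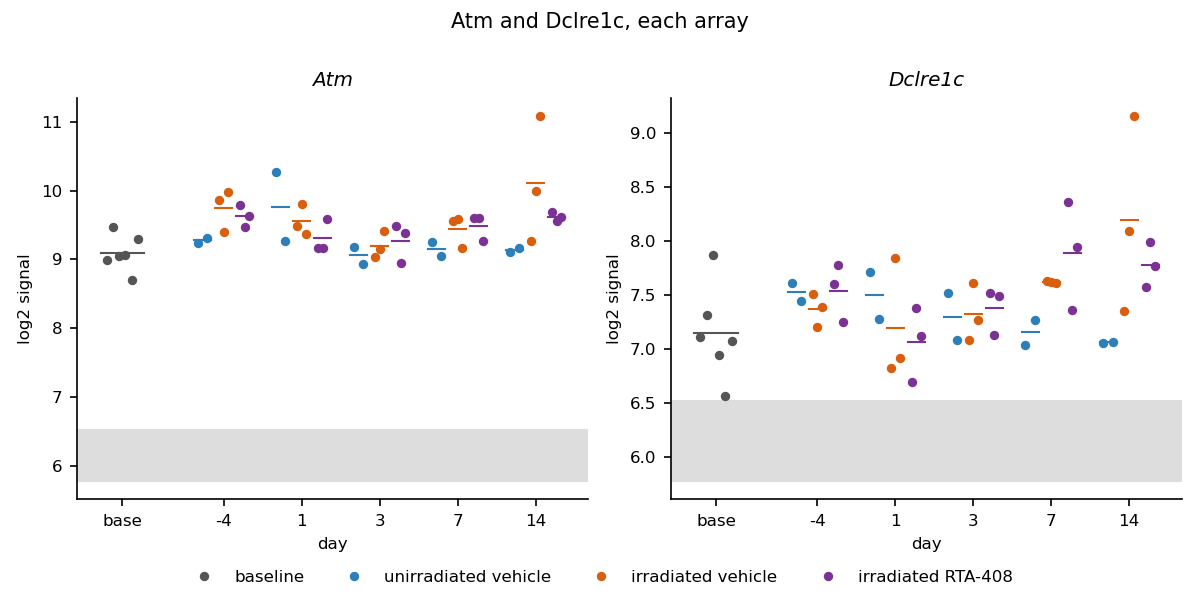
Log2 signal of Atm and Dclre1c on each array (points) with group means (short lines), by arm and day, in the same colours (grey baseline, blue unirradiated vehicle, orange irradiated vehicle, purple irradiated RTA-408); the grey band spans the background of the arrays. On day 14 a single irradiated vehicle array, at 11.08 and 9.16, stands above the rest.

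Base excision and nucleotide excision repair genes were not called in any of the 25 comparisons. Among them were the glycosylase gene Ogg1, the polymerase gene Polb, the scaffold gene Xrcc1, the sensors Parp1 and Parp2, and Ercc1, a subunit of the incision nuclease. Ogg1 read 7.12, 6.23 and 6.50 with vehicle and 7.25 and 7.65 in unirradiated skin on day -4 (difference -0.83, limma adjusted p = 0.187). Parp1 came nearest in vehicle skin on day 14 against baseline (limma adjusted p = 0.0622), and Xrcc1 on day 14 with RTA-408 against baseline (0.054), at 6.52, 6.36 and 7.43 against 6.95 to 7.73. Xpc, a known p53 target, read 9.02, 9.03 and 9.19 with vehicle on day -4 and 8.49 and 8.64 in unirradiated skin, a difference of 0.52 that was not called. In all, 23 of the 36 measured members were called in no comparison, the break-signalling genes Mdc1, Rnf8 and Rnf168 among them. How many of all features were called in no comparison was not counted, so this number has no reference.

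Transcripts of some p53 target genes were higher in the same arrays. Of 21 measured p53 target genes, 9, 8, 5, 6 and 2 were higher in irradiated than in unirradiated vehicle skin over the 5 days and 0 lower. This separate list was also chosen with earlier results of these data known, and p53 activity was not measured. Mdm2, which encodes the ubiquitin ligase that limits p53, differed by 2.14, 2.47, 1.95, 1.58 and 1.15, all called. The cell cycle inhibitor gene Cdkn1a rose by 2.62 on day 1 (limma adjusted p = 0.0043) and by 2.66 on day 7 (0.00188), and differed by 1.21, 1.27 and 0.14 on days -4, 3 and 14 without passing.

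Repair genes outside the members were taken from a wider list, of which 62 of 86 were measured. On days -4, 1, 3, 7 and 14, 2, 1, 1, 1 and 2 were higher and 5, 0, 0, 0 and 1 lower in irradiated than in unirradiated vehicle skin. In this contrast 3.23%, 1.2%, 0.656%, 2.69% and 4.43% of all features were called higher on these days. Those called lower were 4.19%, 0.901%, 0.647%, 1.33% and 2.53%. The median differences were -0.33, -0.08, -0.14, -0.01 and -0.14. The 3 called genes with the largest differences had them in this contrast on day -4. H2ax, the histone variant phosphorylated at breaks, had a mean of 9.59 ± 0.58 (SD, n = 3) in irradiated and 12.12 ± 0.10 (SD, n = 2) in unirradiated vehicle skin (difference -2.53, limma adjusted p = 0.0118). Fancc, of the Fanconi anaemia core complex, was at background in all 3 irradiated arrays and was lower by at least 1.20 (limma adjusted p = 0.00542). Mgmt, the alkyltransferase that reverses alkylated guanine, went the other way: its means were 11.25 ± 0.43 (SD, n = 3) and 9.06 ± 0.28 (SD, n = 2), a difference of 2.20 (limma adjusted p = 3.36e-05). Mgmt was also higher on days 1, 3 and 14, by 1.25, 1.69 and 1.39.

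The drug question was whether RTA-408 changed these genes in irradiated skin, and no member was called between RTA-408 and vehicle. On each of the 5 days 0 of 36 members were called, where 0.0474%, 0.0733%, 0.00431%, 0% and 0% of all features were called in either direction. At an unadjusted p under 0.05 there were 1 member on day -4 and 1 on day 3. On day -4 Xrcc5 was 9.27, 9.08 and 8.26 with RTA-408 and 7.97, 8.39 and 8.41 with vehicle, a difference of 0.61 (95% interval 0.09 to 1.13, limma adjusted p = 1). On day 3 Rnf8, a ubiquitin ligase gene of break signalling, was 6.82, 6.67 and 6.46 against 6.96, 7.60 and 7.33, with no overlap (difference -0.65, 95% interval -1.12 to -0.17, limma adjusted p = 1).

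On day 14 Bard1 (-0.72, limma adjusted p = 0.418) and Chek2 (-0.60, 0.426) had the lowest p among members with a lower mean under the drug, and Apex1 (0.38, 0.644) and Polb (0.25, 0.676) among those with a higher one. On days 1 and 7 no member had an unadjusted p under 0.05, the nearest being Apex1 (-0.51) and Rad50 (-0.30) on day 1, with Chek2 (0.31) and Xrcc6 (0.20) above 0, and Polh (-0.47) and Ercc1 (-0.52) on day 7, with Brca2 (0.51) and Rad51c (0.49) above 0. Xrcc4 (0.30) and Ddb2 (-0.54) on day -4 and Parp2 (0.46), Chek2 (0.55) and Rnf168 (-0.42) on day 3 did not pass either. Atm on day 14 was called lower with RTA-408 once irradiated vehicle replicate 1 was left out, that is, where replicate 3 made up more of the vehicle mean.

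Averaging each rat over its 5 biopsies gave 3 values per irradiated arm. Differences ran from -0.28 (Rnf8) to 0.16 (Chek2) with a median of -0.02, the same over all features being near 0 (-0.003). By this test 0 members were called, 0% of all features, and 0 members had an unadjusted p under 0.05 (790 of all features had). The 95% interval was -0.56 to 0.01 for Rnf8, -0.53 to 0.01 for Bard1 and -0.46 to 0.02 for Brca1, so a lower mean of that size under the drug was not separable from 0 with 3 rats per arm. A drug difference that changed over the days was called for 0 members and 0.0129% of features (smallest limma adjusted p = 0.996 among members).

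**Figure D5:**
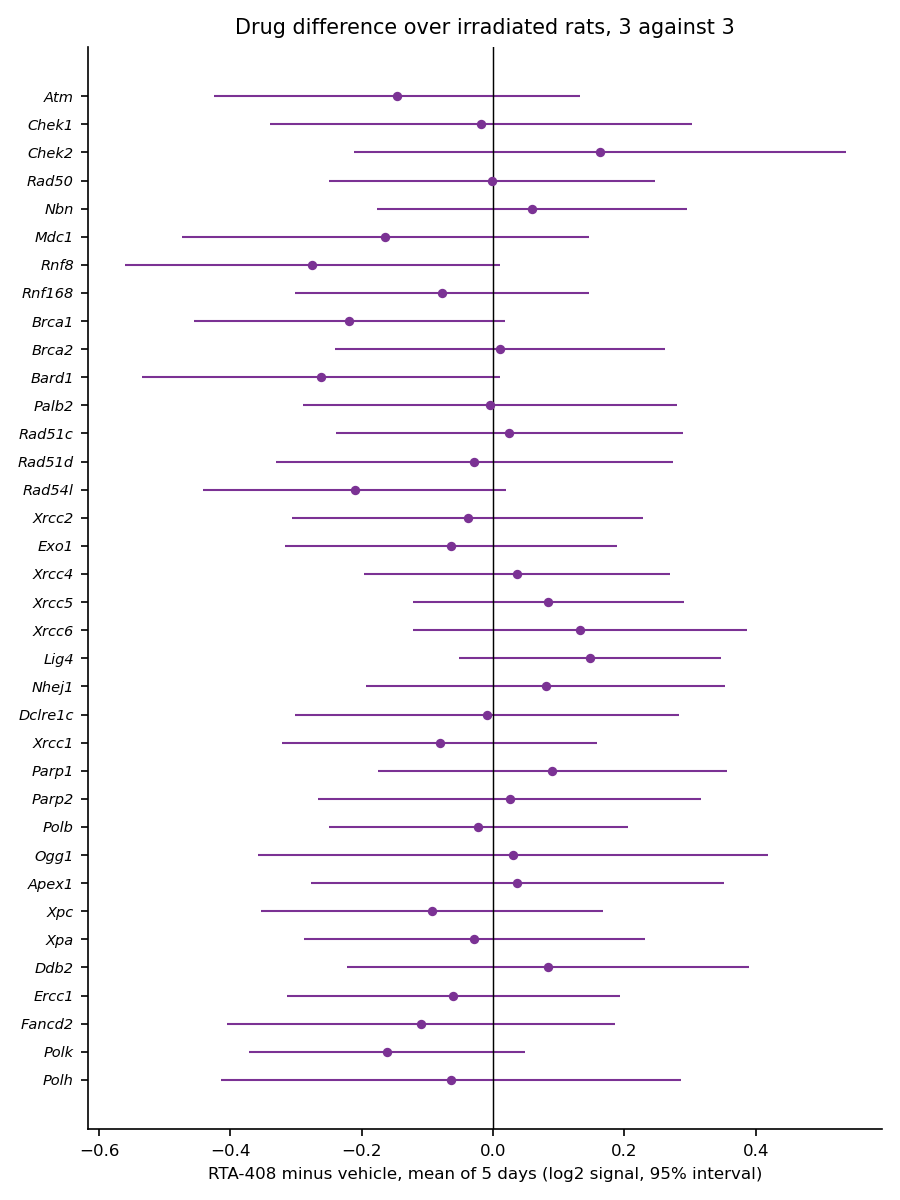
Difference of log2 signal between RTA-408 and vehicle in irradiated skin for each measured member (rows, in pathway order), as the mean of 5 days over 3 rats per arm (points) with its 95% interval (bars). All 36 intervals include 0.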

How the data were processed

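Each array holds log2 signals that the authors deposited, 1 value per feature. Their normalization was not stated in the labels used here, so the scale is taken as deposited. Control features (1646) were set aside and 23188 features tested, 15049 of them with 1 gene symbol in the platform annotation. Differences were fitted with limma 3.58.1 in R 4.3.3, with 1 mean for each of the 16 groups (30 residual degrees of freedom), and p-values were adjusted by Benjamini-Hochberg over all features. The code was tested on simulated data. A group whose arrays were all at or below the negative control median of their array (1153 features) has only a bound, written "at least". The members and the other gene lists were chosen with earlier results of these data known. Named members are those called in a comparison, or, where none was, up to 2 higher and 2 lower with the smallest unadjusted p, plus a fixed panel. Of other repair genes the 3 called ones with the largest difference are named. Replicate numbers mark the rat within an arm, apart from replicate 2 of unirradiated skin. Across arms they do not pair samples: same-numbered deviations correlated between -0.378 and 0.254, with 7 of 25 over 0.1. The fit treats repeated biopsies of a rat as separate samples, so its p-values rest on the spread between arrays. One unirradiated array of day 1 has a description naming another day, and its title was followed. The number of arrays limits the precision.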

Additional observations from a re-analysis of the deposited data

Results flagged for a closer look

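Nbn in baseline skin had 1 array far from the rest. Baseline replicate 5 read 9.28, while the other 5 lay between 9.66 and 9.85. Such a gap is flagged by chance in about 1 in 20 groups, and all 36 measured members were screened for one at baseline.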

How the results depend on the processing

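Counts of member calls are given in the order irradiated vehicle, RTA-408 and unirradiated skin against baseline (12, 13 and 1 in the report) unless stated. Leaving out single arrays gave 7 to 17, 5 to 23 and 0 to 1. It gave 0 to 8 for irradiated against unirradiated vehicle skin (7 in the report) and 0 to 1 for the drug. For the F-tests over days it gave 1 to 6 in vehicle, 1 to 2 in RTA-408 and 0 in unirradiated skin, and 0 to 1 for the radiation effect. The RTA-408 count was 5, 7 and 23 without baseline replicate 1, 3 or 4, and 8 and 7 without its day 1 replicate 1 or 2. The vehicle count was 7 without its day 1 replicate 2 or 3. Array weights gave 26, 30 and 2, and F-test calls of 5, 2 and 4 by arm and 2 for the radiation effect. The replicate number as a block, although these numbers do not pair samples across arms, gave 20, 22 and 3. Under it Atm and Dclre1c on day 14 no longer passed (limma adjusted p = 0.0812 and 0.0664), nor did Lig4 on day 1 (0.0778 and 0.0606). Spike-in set as a term gave 2, 3 and 0, with 0 F-test calls in RTA-408 skin and the Lig4 F-test lost in vehicle skin (0.0779). Fitting only the compared groups gave 6, 4 and 0, and only the arm 0 F-test calls in RTA-408 skin. One spike-in set alone gave 3 calls between irradiated and unirradiated vehicle skin, and 2 and 4 against baseline for vehicle and RTA-408 on days -4 and 1. Quantile normalization gave 2 calls in unirradiated skin, and F-test calls of 2 in RTA-408 and 1 in unirradiated skin. Dropping the dimmest features, which left 17391, gave 2 F-test calls in RTA-408 skin, and the rat as a random block gave 0 calls in unirradiated skin. The rat as a replicate block within the arms, chosen after the data were seen, gave F-test calls of 1 in vehicle and 0 in RTA-408 skin. The cause was not tested. The 37 single results called in the report were refitted 611 times in all and lost the call in 217 of these, and the 32 named results that were not called gained one in 7 of 436. No called value changed sign.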
